A study of Mus musculus with 3 samples.

Results

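The genes described here make sterols and fatty acids, and they were chosen by name as 38 members of those pathways, out of 20886 genes named through the accessions of their array probes. The sterol synthesis arm held 18 genes, of which 8 act in the mevalonate steps and 10 act after squalene. The fatty acid arm held 13 genes, the regulators 5 and sterol transport 2. All 38 members had at least 1 probe, and 35 were well above background on at least 1 array, 34 of them on all 3 arrays. The samples were CD4+ T cells from female C57BL/6 mice aged 8 weeks, collected at day 2 of stimulation. The genotypes were Dll1-/- (Dll1 KO), Rbpj-/- (Rbpj KO) and wild type (WT), with 1 one-colour array each. Dll1 encodes a Notch ligand on the cell surface, and Rbpj encodes the DNA-binding protein through which cleaved Notch acts. The sources used here do not say in which cells each gene was deleted or whether animals were pooled.

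Cholesterol is built from acetyl-CoA through mevalonate, farnesyl diphosphate and squalene, and the same acetyl-CoA pool feeds fatty acid synthesis. Both arms are switched on by SREBP transcription factors, which are held in the endoplasmic reticulum by Insig proteins and carried to the Golgi by Scap when sterols are scarce. Stimulated T cells are known to raise both arms, since a dividing lymphocyte needs new membrane.

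The promoters of the sterol genes were read from RefSeq (build GRCm38.p6), as the 250 bases before each annotated start, for the 31 members that the table holds (all but Fdps, Fdft1, Fads1, Sqle, Scd1, Scd2 and Stard4). The CCAAT box, the site of NF-Y, a factor that acts beside SREBP, was searched as CCAAT on both strands. It was present for 14 of 15 sterol synthesis genes, which is 14 of their 18 windows (77.8%), against 33.8% of all 32851 windows and 35.4% of the windows of genes measured on the arrays. In the fatty acid arm 6 of 12 windows held it. A sterol regulatory element, searched as TCACNCCAC on both strands, was found in 1 member, Hmgcs1, and in 1.05% of all windows. Its shorter form, CACNCCAC on both strands, was found in 3 members, Acat2, Hmgcs1 and Insig1, and in 5.29% of all windows. The core of the Rbpj motif, TGGGAA on both strands, was found in 10 of the members' 41 windows (24.4%), from 8 genes. The 2 Scap windows among them overlap and hold the same site. It stood in 21.6% of all windows and 20.5% of the windows of measured genes. An E-box, CACGTG, stood in 7 of the 41 windows, in 6.02% of all windows and in 8.13% of those of measured genes. Such matches describe the letters and are not measured sites.

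The windows below are printed because they show the contrast within the sterol arm, from Hmgcs1 with both motifs, through Dhcr7 and Tm7sf2 with the CCAAT box, to Acat2, the 1 sterol synthesis gene with a window but no CCAAT box. Capitals mark CCAAT on either strand and, in Hmgcs1, the sterol regulatory element, and the shorter form that Acat2 holds is left in lower case. Hmgcs1 is at chr13:119690101-119690350 on the plus strand, Dhcr7 at chr7:143829964-143830213 on the plus strand, Tm7sf2 at chr19:6067851-6068100 on the minus strand and Acat2 at chr17:12960726-12960975 on the minus strand, each 5′ to 3′ along its gene. The Dhcr7 window is 1 of 3 listed for that gene and was picked for holding the most of these matches. No CCAAT box stood in the other Dhcr7 windows. The printed window lies inside the gene, which spans 143823167 to 143848410.
Hmgcs1: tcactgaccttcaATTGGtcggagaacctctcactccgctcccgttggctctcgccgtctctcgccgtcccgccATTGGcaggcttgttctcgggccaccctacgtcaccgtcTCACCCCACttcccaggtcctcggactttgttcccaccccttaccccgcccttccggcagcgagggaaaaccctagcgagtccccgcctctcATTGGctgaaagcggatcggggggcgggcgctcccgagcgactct
Dhcr7: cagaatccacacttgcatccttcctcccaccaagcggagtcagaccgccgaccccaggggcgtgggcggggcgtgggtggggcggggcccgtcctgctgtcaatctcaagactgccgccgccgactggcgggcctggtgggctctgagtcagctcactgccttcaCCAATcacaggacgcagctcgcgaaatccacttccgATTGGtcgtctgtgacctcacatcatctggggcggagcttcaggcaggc
Tm7sf2: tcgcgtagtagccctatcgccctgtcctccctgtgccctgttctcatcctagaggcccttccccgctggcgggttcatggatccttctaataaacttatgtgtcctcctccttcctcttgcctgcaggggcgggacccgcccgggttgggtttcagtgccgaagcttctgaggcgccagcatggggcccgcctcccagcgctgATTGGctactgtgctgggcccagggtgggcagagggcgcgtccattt
Acat2: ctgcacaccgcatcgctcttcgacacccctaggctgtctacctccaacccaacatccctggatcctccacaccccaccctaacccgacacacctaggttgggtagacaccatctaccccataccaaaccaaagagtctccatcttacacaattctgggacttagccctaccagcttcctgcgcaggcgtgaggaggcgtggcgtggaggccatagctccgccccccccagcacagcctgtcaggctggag

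A level is the log2 processed signal after subtraction of its array's 75th percentile over probes, so 0 is a probe at that percentile. Levels can be compared between arrays for 1 gene, and not between genes, since probes differ in brightness. Differences are on the same log2 scale. With 1 array per genotype, differences have no replicate check and no p-values are given. Repeated spots of 1 probe varied within each array by a median SD of 0.06 log2, with a 95th percentile of 0.20 in the Dll1 KO, 0.24 in the Rbpj KO and 0.19 in WT, which covers spot error only. A difference of 1.5-fold, or 0.58 log2, was the size counted as apart. The median over all measured genes was -0.03 for the Dll1 KO minus WT, -0.07 for the Rbpj KO minus WT and -0.03 for the Rbpj KO minus the Dll1 KO. Scaled to E1A spike-in spots instead, all genes had medians of -0.23, -0.82 and -0.58, and scaled to the array median, -0.07, -0.24 and -0.15. Directions below are therefore relative to the 75th percentile, and with the spike-in scaling all 34 measured members lay below WT in the Rbpj KO and 26 of 34 did in the Dll1 KO. Fewer cells of a type and less RNA per cell cannot be told apart in such samples.

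T cell markers were well above background on each array, 8 of 8, with Cd4 at 1.89 in the Dll1 KO, 2.31 in the Rbpj KO and 1.93 in WT. The Rbpj probes stood at 1.32 in the Dll1 KO, 0.53 in the Rbpj KO and 1.04 in WT, and no array had the Dll1 probe well above background. Whether these probes lie inside the deleted sequence is unknown here, so they do not check the labels. B cell markers were also present, with a summed linear signal of 21.0 times the 75th percentile in the Dll1 KO, 14.6 in the Rbpj KO and 21.1 in WT. The sums were 1.21, 0.80 and 1.23 for the CD8 T cell markers, 5.57, 6.70 and 6.01 for the macrophage markers, and 0.72, 0.42 and 0.33 for the NK markers, in the same order of arrays. Adgre1, Cd14, Fcgr1, Itgax, Flt3, Zbtb46, Xcr1, Ncr1 and Klrk1 were not well above background on any array, and Cd68 had no named probe. Siglech, at 9.22, 9.26 and 9.07, was the dendritic cell marker that was. It rested on 1 of its 2 probes while the other dendritic cell markers were dim, so it is not read as a measure of dendritic cells. Tyrobp, an NK list gene, was at -0.74 in the Dll1 KO, -2.08 in the Rbpj KO and -1.84 in WT. The part of these cells in the differences below was not tested. The array was divided at its middle row. In the lower-numbered rows 455 probes were at least 2-fold brighter in the Dll1 KO than on both other arrays, 493 in the Rbpj KO and 671 in WT, against 68, 277 and 11 in the higher-numbered rows. The part of the array surface in a result was not tested, and the place of a probe is given where a result rests on it.

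In the Dll1 KO the sterol and fatty acid genes mostly lay close to WT, with 32 of 34 measured members within 1.5-fold. One member, Fdft1, was at least 1.5-fold higher and 1, Acss2, at least 1.5-fold lower, against 1.95% and 2.25% of all 11811 genes measured in that comparison. The Fdft1 difference came from a dim probe that passed the background flag in the Dll1 KO alone. By the brightest probe of each gene Fdft1 was at -0.19 and Acss2 at -0.09, and no member was 1.5-fold apart. The sterol synthesis arm had 9 members above WT and 9 below, with a median of 0.00. The fatty acid arm had 6 above and 4 below with a median of 0.12, which turned to -0.08 with spike-in scaling and -0.04 without a filter on dim probes, and the regulators had 4 above and 1 below with a median of 0.19.

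In the Rbpj KO most members stood below WT by small amounts. Of 34 measured members 24 were below and 10 above, with a median of -0.18, while 60.2% of all genes were below. Acat2, Dhcr7, Acss2 and Fads1 were at least 1.5-fold lower, and Tm7sf2 was at least 1.5-fold higher, against 6.91% and 4.86% of 11578 genes. The 4 lower genes have all their probes in the lower-numbered rows. The sterol synthesis arm had 14 of 18 members below WT and a median of -0.18, and the fatty acid arm 7 of 10 and a median of -0.16. In the higher-numbered rows alone the medians were -0.08 over 9 genes and -0.03 over 6, beside -0.08 for all genes. In the lower-numbered rows they were -0.23 over 10 genes and -0.45 over 4, beside -0.07 for all genes. With normexp background correction and quantile normalization (normexp below), 1 member, Acat2, was still 1.5-fold apart, 21 of 34 were below WT, and the medians of the arms were -0.11 and -0.06, beside 0.01 for all genes. Normexp adds an offset of 50 to each signal before the log, which makes differences of dim probes smaller. A call lost after normexp is therefore no separate check for a dim gene.

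**Figure D1:**
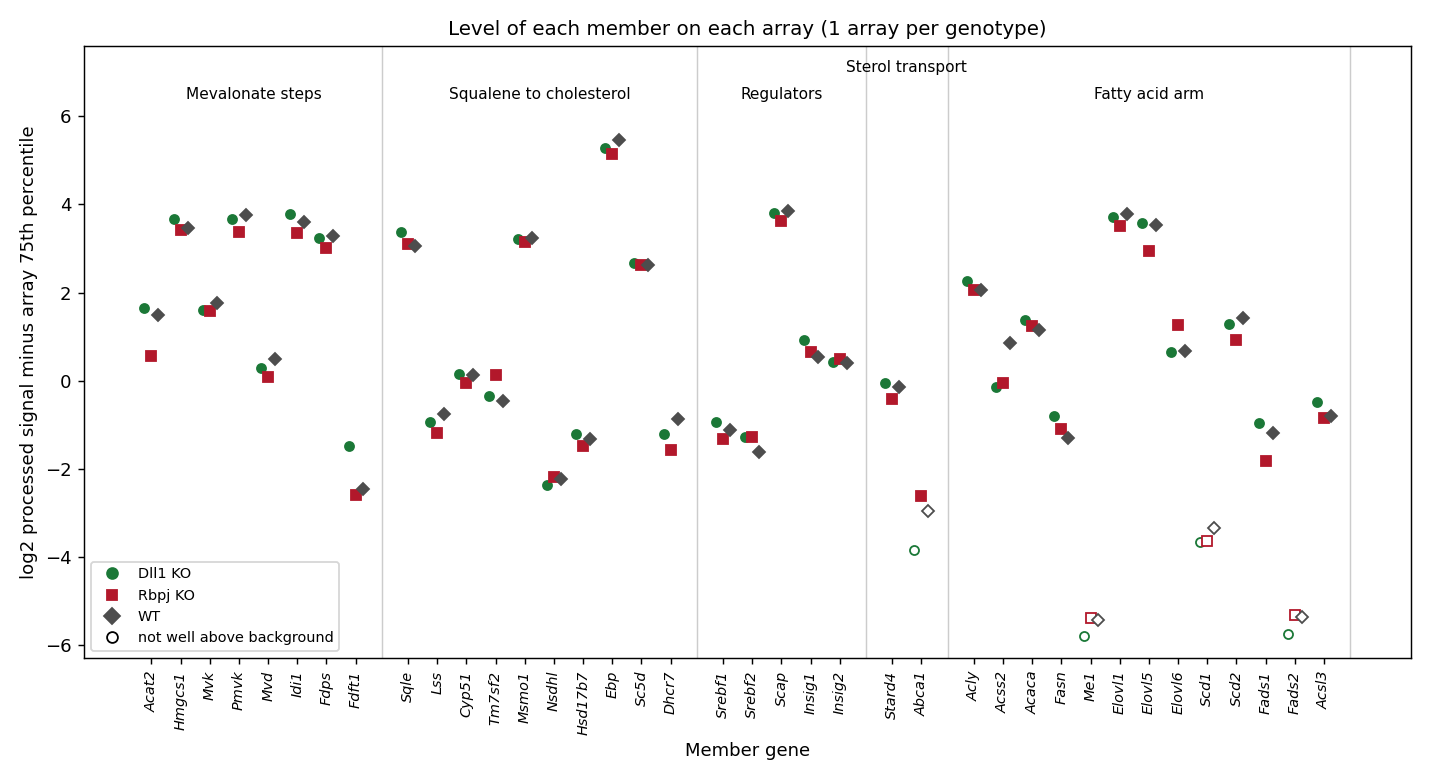
Level of each of the 38 members on each array, in log2 relative to the 75th percentile of its array, grouped by role, with 1 point per array and open points where no used probe was well above background. The points of a gene mostly lie close together, and the Rbpj KO point stands clearly apart for Acat2 at 0.55, against 1.498 in WT.

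The mevalonate steps lay on 1 side of WT in the Rbpj KO. Each of the 8 genes was lowest on the Rbpj KO array, where 47.4% of 11553 genes measured on all 3 arrays were lowest, and the median against WT was -0.26. With normexp it was 6 of 8, the exceptions being Hmgcs1 and Mvk, at 0.08 and 0.03 against WT, while 35.3% of all genes were lowest there, and by the brightest probe of each gene it was 7 of 8. Acat2, the cytosolic thiolase that joins acetyl-CoA units at the start of the pathway, was at 1.66 in the Dll1 KO, 0.55 in the Rbpj KO and 1.498 in WT. The Rbpj KO was the low array by -0.95 against WT and by -1.11 against the Dll1 KO, while the Dll1 KO differed from WT by 0.16. Its single probe is in row 94, and after normexp the differences were -0.67 and -0.92. Acat3, a closely related copy of Acat2 in the mouse that may share probe signal, was at 0.41 in the Dll1 KO, -0.76 in the Rbpj KO and 0.95 in WT.

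Hmgcs1, which makes HMG-CoA, was at 3.66 in the Dll1 KO, 3.43 in the Rbpj KO and 3.47 in WT. Mvk, the kinase that acts on mevalonate, was at 1.603, 1.590 and 1.754 on the same arrays. Both differed from WT by 0.20 or less in either knockout, about the 95th percentile of spot SD. Pmvk, the following kinase, was at 3.67 in the Dll1 KO, 3.38 in the Rbpj KO and 3.77 in WT, with its 2 probes at -0.42 and -0.35 in the Rbpj KO against WT. Mvd, which forms isopentenyl diphosphate, was at 0.29 in the Dll1 KO, 0.08 in the Rbpj KO and 0.48 in WT. In both genes the WT array was highest and the Rbpj KO array lowest.

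Idi1, the isopentenyl diphosphate isomerase, was at 3.78 in the Dll1 KO, 3.34 in the Rbpj KO and 3.61 in WT. Fdps, which joins the isoprene units into farnesyl diphosphate, was at 3.25, 3.02 and 3.28 on those arrays. The Rbpj KO differed from WT by -0.27 and -0.26 for this pair, and the Dll1 KO was above WT for Idi1 and at the WT level for Fdps. Fdft1, squalene synthase, averaged -1.48 in the Dll1 KO, -2.61 in the Rbpj KO and -2.46 in WT, and this is the only member at least 1.5-fold higher in the Dll1 KO. That difference of 0.98 came from a dim probe in row 4, at -3.04 in the Dll1 KO and not well above background in the Rbpj KO and WT. Its probe well above background on all 3 arrays was at 0.08 in the Dll1 KO, -0.05 in the Rbpj KO and 0.27 in WT, a difference of -0.19 in the Dll1 KO.

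After squalene, of 10 genes, 6 were below WT in the Rbpj KO and 5 in the Dll1 KO. Of all genes, 60.2% and 55.7% were below WT in these knockouts. Sqle, the squalene epoxidase that controls flux into sterols, was at 3.38 in the Dll1 KO, 3.11 in the Rbpj KO and 3.06 in WT. It was highest in the Dll1 KO, by 0.33 over WT and 0.26 after normexp, and its probe is in the last row of the array. Lss, which closes the rings to form lanosterol, was at -0.94 in the Dll1 KO, -1.18 in the Rbpj KO and -0.75 in WT. Cyp51, the lanosterol demethylase, was at 0.15, -0.06 and 0.12. Lss was lower than WT in both knockouts and Cyp51 in the Rbpj KO.

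Tm7sf2, a sterol reductase that acts after Cyp51, was at -0.35 in the Dll1 KO, 0.13 in the Rbpj KO and -0.46 in WT. It was the only sterol synthesis gene at least 1.5-fold higher in the Rbpj KO, at 0.59. Its brighter probe, in row 44, gave 0.33 and its dimmer probe, in row 214, 0.86, so both pointed up, and normexp gave 0.30. Under spike-in scaling the difference was -0.15, beside a median of -0.82 for all genes.

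Msmo1, Nsdhl and Hsd17b7 act in removing methyl groups from the sterol ring, and none differed from WT by more than 0.17 in either knockout as a mean of its probes. Msmo1 was at 3.22 in the Dll1 KO, 3.16 in the Rbpj KO and 3.24 in WT. Nsdhl was at -2.38, -2.19 and -2.24, and Hsd17b7 at -1.21, -1.48 and -1.32, in the same order. The 2 probes of Nsdhl disagreed in sign in both knockouts, with -0.36 and 0.10 in the Dll1 KO against WT. Those of Hsd17b7 disagreed in the Dll1 KO, with 0.29 by the brighter probe and -0.07 by the dimmer.

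Ebp, the isomerase that shifts a ring double bond, was at 5.28 in the Dll1 KO, 5.14 in the Rbpj KO and 5.47 in WT. Sc5d, the desaturase that follows it, was at 2.68, 2.63 and 2.63, so its arrays lay within 0.05 of each other. Dhcr7, the reductase that completes cholesterol, was at -1.21 in the Dll1 KO, -1.57 in the Rbpj KO and -0.86 in WT. WT was the high array for Dhcr7, with differences of -0.34 for the Dll1 KO and -0.71 for the Rbpj KO, which were -0.18 and -0.40 after normexp. Its probe lies in row 40.

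**Figure D2:**
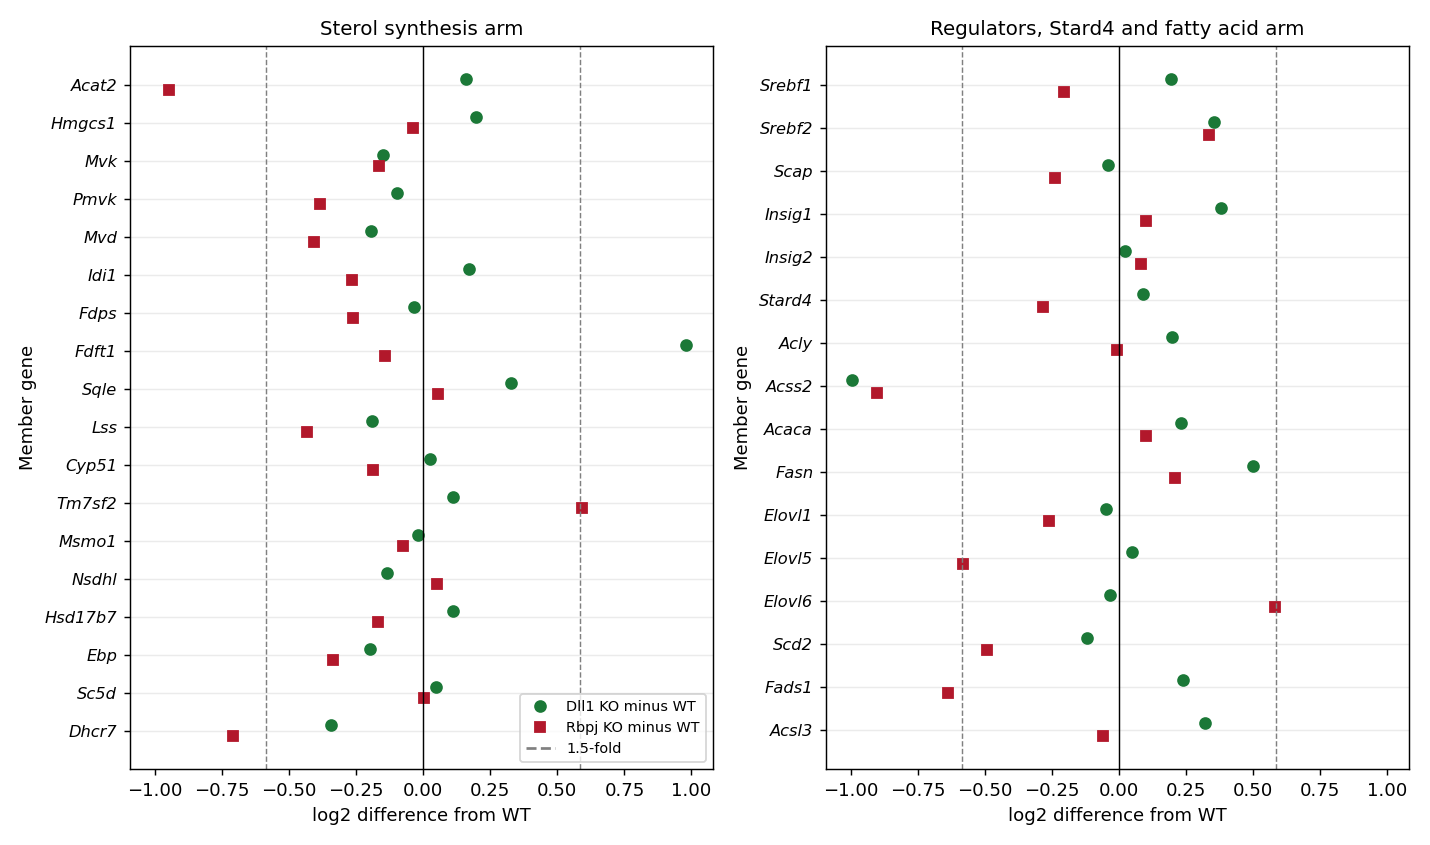
Log2 difference of each member measured in both comparisons from WT, with circles for the Dll1 KO, squares for the Rbpj KO and dashed lines at 1.5-fold, 1 array per genotype. Most squares in the sterol synthesis arm lie left of 0, 14 of 18, and the circles split 9 to 9.

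None of the 5 regulators was 1.5-fold apart in any comparison. Srebf1, which encodes the SREBP forms tied more to fatty acid genes, was at -0.93 in the Dll1 KO, -1.33 in the Rbpj KO and -1.13 in WT. Srebf2, which encodes the form tied more to sterol genes, was at -1.27, -1.29 and -1.63. Srebf2 was higher than WT in both knockouts, by 0.35 and 0.34, with both of its probes above WT, and these were 0.16 and 0.13 after normexp and 0.15 and -0.41 with spike-in scaling. Scap, the SREBP escort, was at 3.81 in the Dll1 KO, 3.62 in the Rbpj KO and 3.86 in WT.

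Insig1, an anchor of the escort that is itself an SREBP target, was at 0.92 in the Dll1 KO, 0.64 in the Rbpj KO and 0.54 in WT. It was 0.38 above WT in the Dll1 KO, the largest difference among the regulators in that comparison, and 0.30 after normexp. Insig2, the related anchor, was at 0.42, 0.48 and 0.40 and its 2 probes pointed opposite ways in each knockout.

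Sterol transport was represented by a carrier and an exporter. Stard4, a cytosolic carrier of cholesterol, was at -0.05 in the Dll1 KO, -0.42 in the Rbpj KO and -0.14 in WT, with both probes lowest in the Rbpj KO. Abca1, the exporter of cholesterol that LXR receptors switch on when sterols are plentiful, was well above background on the Rbpj KO array alone, at -2.62 in row 75. Scaled to the 75th percentile, it was at least 1.27-fold higher in the Rbpj KO than in WT, where the probe read -2.96, and at least 1.85-fold higher than in the Dll1 KO. Before scaling its signal was 23.0 in the Rbpj KO and 22.8 in WT, so the difference from WT rests on the scaling. Between the Dll1 KO and WT no value is given, since both were dim.

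The fatty acid arm started from acetyl-CoA supply, where the genes went different ways. Acly, which splits citrate into acetyl-CoA, was at 2.26 in the Dll1 KO, 2.06 in the Rbpj KO and 2.07 in WT. Acss2, which makes acetyl-CoA from acetate, averaged -0.14 in the Dll1 KO, -0.05 in the Rbpj KO and 0.86 in WT. WT was the high array, with differences of -0.99 for the Dll1 KO and -0.90 for the Rbpj KO, but the 2 probes disagreed in size. The brighter one, in row 178, differed by -0.09 in each knockout, and the dimmer one, in row 37, by -1.90 for the Dll1 KO and -1.71 for the Rbpj KO. After normexp the gene stood at -0.53 and -0.47.

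Acaca, which commits acetyl-CoA to chain building as malonyl-CoA, was at 1.379 in the Dll1 KO, 1.249 in the Rbpj KO and 1.149 in WT, with 2 probes that gave -0.21 and 0.41 in the Rbpj KO against WT. Fasn, the synthase that builds palmitate, was at -0.81 in the Dll1 KO, -1.10 in the Rbpj KO and -1.31 in WT. Both knockouts were above WT for Fasn, by 0.50 and 0.21, or by 0.30 and 0.12 after normexp, with the probe in the higher-numbered rows. With spike-in scaling they were 0.30 and -0.54. Me1, the malic enzyme that supplies NADPH, had 3 probes, none of them well above background.

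**Figure D3:**
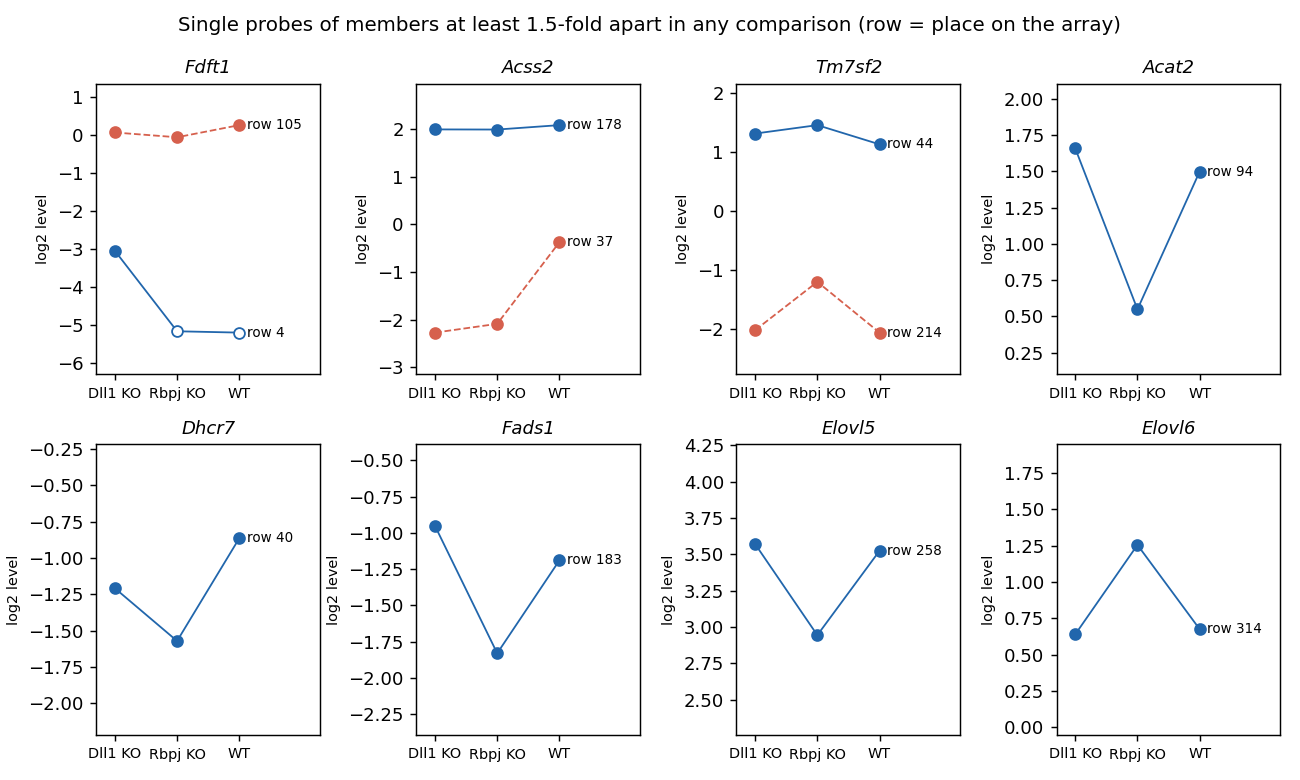
Log2 level of each single probe on the 3 arrays for the 8 members at least 1.5-fold apart in any comparison, with the array row of each probe beside its line and open points where it was not well above background. For Fdft1 and Acss2 1 probe is nearly flat and the other carries the difference, while both Tm7sf2 probes are highest in the Rbpj KO.

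Chain elongation held a pair that went opposite ways in the Rbpj KO. Elovl5, which lengthens polyunsaturated chains, was at 3.57 in the Dll1 KO, 2.94 in the Rbpj KO and 3.52 in WT. Elovl6, which lengthens saturated and monounsaturated chains, was at 0.64 in the Dll1 KO, 1.26 in the Rbpj KO and 0.68 in WT. The Rbpj KO was the low array for Elovl5, by -0.58 against WT and -0.63 against the Dll1 KO, and the high array for Elovl6, by 0.58 and 0.62, so each stood just inside 1.5-fold against WT and just outside it against the Dll1 KO. Both probes are in the higher-numbered rows, and after normexp the differences from WT were -0.39 and 0.52. With spike-in scaling Elovl6 stood at -0.17. Elovl1, which makes very long saturated chains, was at 3.72 in the Dll1 KO, 3.51 in the Rbpj KO and 3.77 in WT.

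Scd2 and Fads1, the desaturases that were measured, with 1 probe each, were lowest in the Rbpj KO, where 47.4% of all genes were lowest. Scd2, a stearoyl-CoA desaturase, was at 1.29 in the Dll1 KO, 0.92 in the Rbpj KO and 1.41 in WT, with its probe in the higher-numbered rows. Fads1, a desaturase of polyunsaturated chains, was at -0.95 in the Dll1 KO, -1.83 in the Rbpj KO and -1.19 in WT. The Rbpj KO stood below WT by -0.49 for Scd2 and -0.64 for Fads1, or -0.42 and -0.43 after normexp, and below the Dll1 KO by -0.88 for Fads1, whose probe is in row 183. Scd1 and Fads2 were not well above background on any array. Acsl3, which links fatty acids to coenzyme A, was at -0.47 in the Dll1 KO, -0.85 in the Rbpj KO and -0.79 in WT, so the Dll1 KO was the high array by 0.32 over WT.

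Between the knockouts, 29 of 34 members were lower in the Rbpj KO than in the Dll1 KO, with a median of -0.23, while 55.1% of all genes were. Acat2, Fdft1, Elovl5 and Fads1 were lower by 1.5-fold or more, and Elovl6 was higher by 1.5-fold or more, against 6.34% and 5.24% of 11794 genes. The median was -0.23 for the sterol synthesis arm and -0.25 for the fatty acid arm, and with the higher-numbered rows alone they were -0.23 over 9 genes and -0.33 over 6. After normexp they were -0.07 and -0.20, beside 0.02 for all genes. The 3 comparisons share arrays, so they are not independent. Without its dim probe, Fdft1 was at -0.13 here.

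**Figure D4:**
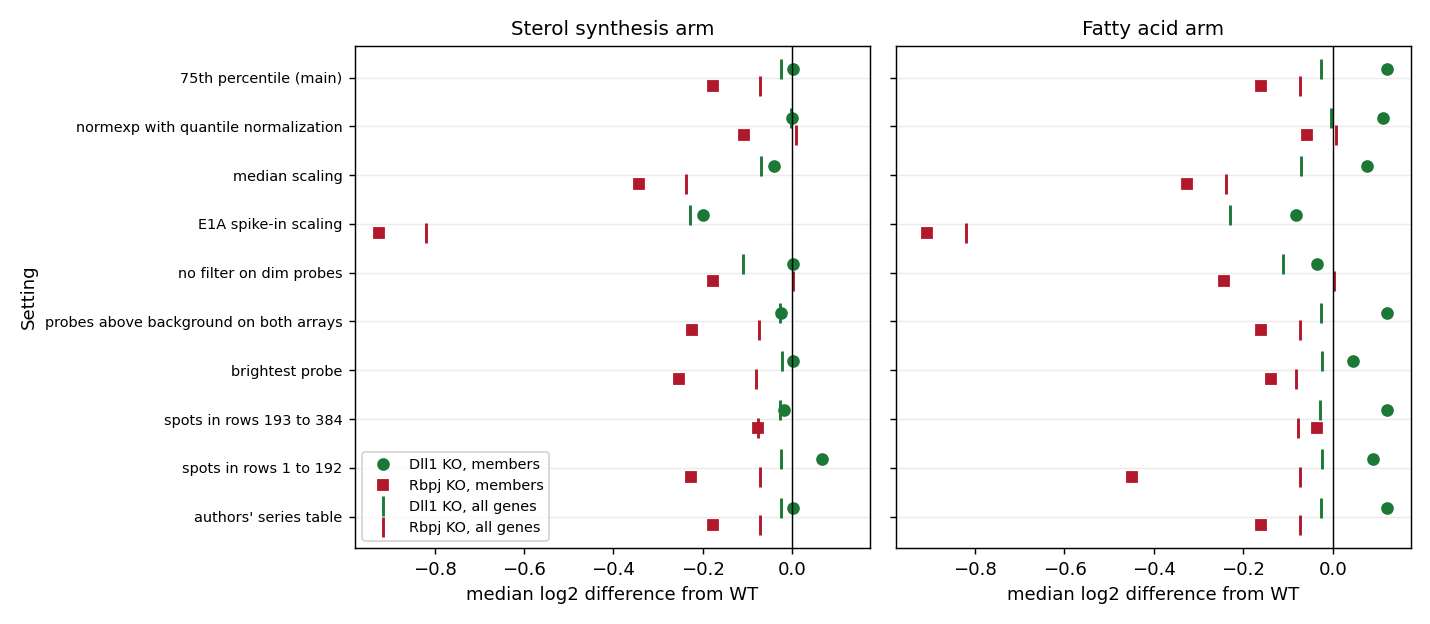
Median log2 difference from WT of the sterol synthesis arm (18 genes) and the fatty acid arm (10 genes) under each setting (fewer genes in either part of the array, and 13 fatty acid genes without the filter), with circles for the Dll1 KO, squares for the Rbpj KO and vertical ticks for the median of all genes under that setting. The Rbpj KO squares lie left of their tick except in the higher-numbered rows, where the sterol square is on its tick at -0.08 and the fatty acid square is right of it at -0.03.

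Genes around these pathways were read from further lists. Of 13 partners in SREBP processing and lipid synthesis, 12 were measured, with medians against WT of -0.02 (Dll1 KO) and 0.04 (Rbpj KO). Acacb is the mitochondrial acetyl-CoA carboxylase that restrains fatty acid oxidation. It was at -2.02 in the Dll1 KO, -2.20 in the Rbpj KO and -2.71 in WT. At 0.69 in the Dll1 KO against WT it was the 1 gene past 1.5-fold. After normexp it was at 0.26, but its probe is dim and the offset makes such differences smaller. Thrsp, which promotes lipid synthesis in liver, was well above background in WT alone, at -1.09 in row 91. The Dll1 KO was at least 5.36-fold lower than WT, and the Rbpj KO at least 4.20-fold. This rests on 1 probe in the lower-numbered rows, where more probes were bright in WT alone, and the part of the array surface in it was not tested.

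Of 12 genes of LXR signalling and sterol handling, 9 were measured, with medians against WT of -0.07 (Dll1 KO) and -0.21 (Rbpj KO). The medians of all genes were -0.03 and -0.07. After normexp Nr1h2 and Abcg1 in the Rbpj KO moved from -0.21 and -0.05 to 0.01 and 0.06, while Lpcat3 stayed below WT at -0.19. Npc2, which moves cholesterol out of lysosomes, was at 4.8003 in the Dll1 KO, 4.13 in the Rbpj KO and 5.44 in WT. It was below WT by -0.64 and -1.32, or -0.62 and -1.15 after normexp, with its probe in row 173. Nr1h3, the LXR alpha receptor, was at -1.02 in the Dll1 KO, -1.53 in the Rbpj KO and -0.91 in WT, a difference of -0.61 in the Rbpj KO that was -0.41, under 1.5-fold, after normexp. No other gene of this list was 1.5-fold from WT in either knockout.

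Fatty acid oxidation, the opposing pathway, had all 17 genes measured and none 1.5-fold from WT. Of all genes, 1.95% were that much higher and 2.25% lower in the Dll1 KO, and 4.86% and 6.91% in the Rbpj KO. In the Dll1 KO 12 of 17 were below WT with a median of -0.15, while 55.7% of all genes were below WT and the fatty acid synthesis arm had a median of 0.12. In the Rbpj KO 14 of 17 were below with a median of -0.11, beside 60.2% of all genes. The largest differences were Acads, a short-chain acyl-CoA dehydrogenase, at -0.50 in the Dll1 KO, and Acadl, the long-chain one, at -0.36 there. After normexp they were at -0.14 and -0.29. In the Rbpj KO, normexp left oxidation genes on both sides of WT, such as Hadhb at 0.11 and Hadh at -0.13. The count of 14 of 17 below WT there therefore depended on the processing. Whether synthesis and oxidation differ beyond array error cannot be tested with 1 array per genotype.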

How the data were processed

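RNA from 3 samples was hybridised to 3 arrays of 1 Agilent mouse design on 1 slide, labelled with Cy3 from 20 ng of RNA, per the labels and the file headers. The deposited scanner files give each spot's processed signal, a linear intensity from which Feature Extraction 10.7.1.1 had removed background and spatial trends, per the file headers. A series table deposited by the authors holds log2 values. For 100% of probes these lay within 0.01 of the log2 signal after 1 shift per array, so their direction follows the signal and genes were not centred. Columns had medians of -3.40 in the Dll1 KO, -3.28 in the Rbpj KO and -3.44 in WT.

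Outlier and control spots were left out, 55678 probes remained, and each array was scaled to its 75th percentile of log2 signal (7.28 in the Dll1 KO, 7.14 in the Rbpj KO and 7.47 in WT). Probes well above background numbered 50.1%, 47.3% and 46.6% in that order, and the number of arrays limits the precision. RefSeq accessions (GRCm38.p6) named 27507 probes (49.4%), which gave 20886 genes. The design was built on another assembly, so that table gave names only. Levels average a gene's probes that passed the background flag on any array, and a difference needs a probe that passed on both arrays. For a gene that passed on 1 array, the bound uses the dim array's own signal or its lowest passing signal, whichever is higher.

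Of 38 members 14 had more than 1 probe. The steps were tested on simulated data. All members, lists and settings were chosen with earlier results of these data known. Every member is reported, and from the further lists genes 1.5-fold from WT, at most 4, or otherwise the 2 largest differences. Alternatives were normexp (limma 3.58.1, offset 50, on median signals) with quantile normalization, median and spike-in scaling, no filter, probes above background on both arrays, the brightest probe, either part of the array and the series table.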

Additional observations from a re-analysis of the deposited data

How the results depend on the processing

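Of 819 member values recomputed under 9 alternatives, 59 changed sign, 26 of them with spike-in scaling. The 102 values of the series table are the same signal rescaled, so none of them could change sign. None of the 51 and 54 values from the lower-numbered and higher-numbered rows did either. A member with all its used probes in 1 part of the array keeps its value there by construction. The 819 therefore include many values that could not move, and 59 of 819 does not measure stability. Of the 59, 3 had been at least 1.5-fold apart. Fdft1 in the Dll1 KO against WT was at -0.19 both with probes above background on both arrays and by its brightest probe, and Tm7sf2 in the Rbpj KO against WT was at -0.15 under spike-in scaling. Spike-in scaling moves every gene of an array by 1 amount. With it the sterol and fatty acid medians were -0.93 and -0.91 in the Rbpj KO against WT. There 30 members were at least 1.5-fold apart in place of 5, all of them lower. Between the knockouts the medians were -0.78 and -0.80, with 27 members apart in place of 5. All genes had medians of -0.82 and -0.58 in these comparisons, and 94.0% of them were lowest in the Rbpj KO. Shares of all genes past 1.5-fold were found for the main setting only, so the counts in this paragraph have no background and are not read as results about the members. After normexp with quantile normalization the members apart numbered 0 in the Dll1 KO against WT in place of 2, 1 in the Rbpj KO against WT and 1 between the knockouts. In the Dll1 KO against WT 1 was left with probes above background on both arrays and 0 by the brightest probe, and in the Rbpj KO against WT 3 by the brightest probe. The higher-numbered rows, where 18 members were measured, gave 0, 1 and 3 members apart in the 3 comparisons. The lower-numbered rows gave 3 between the knockouts and a fatty acid median of -0.45 over 4 genes in the Rbpj KO against WT. Fewer genes enter in either part of the array, and otherwise the cause was not tested. No paired analysis was possible because each genotype has 1 array.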

Other observations

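Genes that use isoprenoids made from mevalonate had 8 of 8 measured and none 1.5-fold from WT. Of all genes, 1.95% were that much higher and 2.25% lower in the Dll1 KO. In the Rbpj KO these shares were 4.86% and 6.91%, so most genes lay within 1.5-fold of WT as well. Against WT the median was 0.04 for the Dll1 KO and -0.03 for the Rbpj KO. Fntb, the beta subunit of protein farnesyltransferase, stood at 0.25 for the Dll1 KO and -0.29 for the Rbpj KO, or 0.09 and -0.04 after normexp. Dhdds, which starts dolichol synthesis, stood at -0.12 and -0.27, or -0.07 and -0.17 after normexp. Of 6 genes of acyl-CoA activation and uptake 5 were measured, none of them 1.5-fold from WT, with medians of -0.02 and 0.17. Acsl1, an acyl-CoA synthetase, was above WT in both knockouts, at 0.32 for the Dll1 KO and 0.25 for the Rbpj KO. Acsl4, which prefers arachidonate, stood at 0.16 and -0.30, and no array had Acsl6 well above background.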
